A study of Homo sapiens with 6 samples.

Results

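The 10 genes described here encode subunits of cohesin and proteins that load, release or acetylate it. They were taken by gene symbol from a deposited table of 20026 genes, and each of the 10 symbols had a row. *SMC1A*, *SMC3*, *RAD21*, *STAG1* and *STAG2* encode subunits of the ring, and *NIPBL*, *WAPL*, *PDS5A*, *PDS5B* and *ESCO2* encode its regulators. The study asked which genes depend on miR-23a and miR-27a, neighbouring miRNAs of a cluster, in HepG2 cells, which come from a human liver cancer. The RNA of 3 groups was sequenced, with 2 libraries for each. Scr cells had been given the empty Cas9 vector and are labelled wild type. Knockout cells, called miR-23a KO or miR-27a KO, had been given the same vector with a pair of guide RNAs on either side of the mature miRNA, and were grown from sorted single cells according to the study. The deposited design instead speaks of cells sorted for different miRNA activity, and the cell type in the labels uses a term from breast cancer, so the sample titles were followed. Other mature miRNAs of the cluster were also lowered in both knockouts by qPCR outside these files, so neither group lacks its named miRNA alone. The labels do not say whether the libraries of a group are clones, cultures or repeat preparations, and p-values measure only the spread between them, which may be technical. The miRNA genes and their host transcript were not analysed here, so the genotype of each library rests on its label.

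Cohesin is a protein ring built from a pair of SMC proteins, a kleisin that closes it and a STAG subunit. It holds sister chromatids together from replication to anaphase and extrudes the chromatin loops of interphase. NIPBL loads the ring, WAPL with PDS5 proteins opens it, and acetylation of SMC3 by ESCO enzymes locks it for mitosis.

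The deleted miRNAs are shown first, because matches to their seeds were searched in the 10 transcripts. Capitals mark the seed, bases 2 to 8 of the mature miRNA, and the sequences are those of RefSeq for GRCh38.p14. The miR-23b-3p and miR-27b-3p copies on chromosome 9 are shown because they carry the same seeds and were not targeted.

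miR-23a-3p: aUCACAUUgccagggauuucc
miR-23b-3p: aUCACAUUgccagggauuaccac
miR-27a-3p: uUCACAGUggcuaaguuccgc
miR-27b-3p: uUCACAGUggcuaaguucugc

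These seeds, those of miR-23a-3p against miR-27a-3p, shared 6 of 7 bases and differed by U7G, with positions counted from 1 at the 5′ end of the miRNA. On the transcript strand the matching sites read AATGTGA and ACTGTGA. Sites were searched in the 3′-UTR of the transcript with the longest coding sequence of each gene in GENCODE release 29. Only full matches of 7 bases were counted, and shorter matches, coding sequence and other transcripts were not searched. Of the 10 cohesin genes, 2 had a miR-23a-3p site (*SMC1A* and *ESCO2*) and 2 had a miR-27a-3p site (*STAG1* and *PDS5B*). Among 15883 genes with an annotated 3′-UTR, 16.7% had a miR-23a-3p site and 14.5% a miR-27a-3p site, while the median 3′-UTR was 878 bases long in all of them and 1950 in the cohesin genes. The sites of *STAG1*, *PDS5B* and *SMC1A* are printed with 8 bases on either side and the seed match in capitals.

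STAG1: gcctatatACTGTGAtagcttgt
PDS5B: gcaattttACTGTGAaaaaaaat
SMC1A: ggaggcagAATGTGAgctattca

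The *STAG1* match lay at chr3:136338190-136338196 on the minus strand of GRCh38, 58 bases into a 3′-UTR of 2021 bases. The *PDS5B* match lay at chr13:32775487-32775493 on the plus strand, at base 435 of 2967, and was followed by A. The *SMC1A* match lay at chrX:53374902-53374908 on the minus strand, at base 5195 of 5954, far from the stop codon. A match of 7 bases is a description of the letters and not evidence of binding. Binding was examined by the study outside these files, by immunoprecipitation of Argonaute proteins. There it reports *STAG1* mRNA bound with miR-27a and not with miR-23a.

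**Figure D1:**
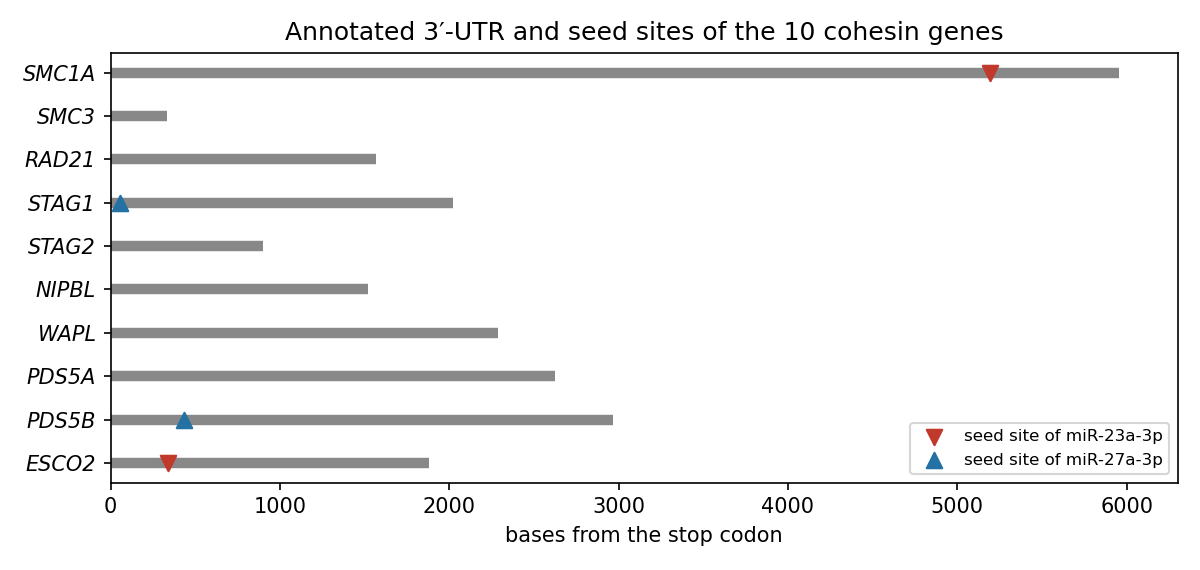
Annotated 3′-UTR of each cohesin gene (grey bar, in bases from the stop codon) with matches to the seeds of miR-23a-3p (red) and miR-27a-3p (blue). The *STAG1* site lies at base 58 and the *SMC1A* site at base 5195, and 6 of the 10 genes have neither site.

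The Scr libraries held 14891239 and 14405250 counts in total, those of miR-23a KO 16515261 and 15930779, and those of miR-27a KO 15850589 and 15947308. Levels are given as CPM, counts scaled to library size with the TMM method of edgeR, whose factors were 0.796 and 1.17 in miR-23a KO and between 0.966 and 1.04 in the other libraries. The miR-23a KO libraries stood apart from each other. Over 14163 genes, the SD of the log2 ratio of replicate 2 to replicate 1 was 1.28 in that pair, 0.64 in Scr and 0.43 in miR-27a KO. The miR-27a KO libraries were close but distinct, with a median squared deviation 1.81 times the sampling noise. For cohesin, replicate 2 of miR-23a KO was more than 2-fold above replicate 1 for 10 of the 10 genes, where 25.8% of all genes were. The same was true of 4 of the 10 genes in the Scr pair, where 4.34% of all genes were, and of 0 in the miR-27a KO pair, where 1.57% were. The comparisons of miR-23a KO are therefore also given with each of its libraries left out.

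*SMC1A* and *SMC3* encode the SMC arms of the ring. *SMC1A* stood at 65.5 and 76.6 CPM in the Scr libraries, at 30.1 and 114 in miR-23a KO, and at 92.3 and 103 in miR-27a KO. Both miR-27a KO libraries were thus above both Scr libraries, whereas miR-23a KO held the lowest and the highest library of all. *SMC3* stood at 5.15 and 11.7 CPM in Scr, at 5.25 and 25.4 in miR-23a KO, and at 9.39 and 7.71 in miR-27a KO. Its miR-27a KO libraries fell between the Scr libraries, and replicate 2 of miR-23a KO was the only library above them.

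*RAD21* encodes the kleisin, which separase cuts at anaphase. It stood at 46.5 and 59.1 CPM in Scr, at 49.5 and 158 in miR-23a KO, and at 65.0 and 65.8 in miR-27a KO. Replicate 1 of miR-23a KO lay inside the Scr range and replicate 2 far above it, and the miR-27a KO libraries lay together just over Scr.

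*STAG1* and *STAG2* encode alternative subunits that bind the kleisin. *STAG1* was counted 17 and 49 times in Scr, 16 and 234 times in miR-23a KO, and 45 and 68 times in miR-27a KO, which is 1.18 and 3.31, 1.22 and 12.6, and 2.73 and 4.10 CPM. It was the gene with the widest gap in the miR-23a KO pair, its miR-23a KO replicate 1 was level with the lower Scr library, and miR-27a KO overlapped Scr. *STAG2* stood at 7.65 and 11.9 CPM in Scr, at 10.5 and 33.5 in miR-23a KO, and at 16.4 and 13.1 in miR-27a KO. Here the miR-27a KO libraries were above both Scr libraries, and only replicate 2 of miR-23a KO was.

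Among the regulators, *NIPBL*, the loader, stood at 4.45 and 11.8 CPM in Scr, at 4.34 and 20.1 in miR-23a KO, and at 7.27 and 8.07 in miR-27a KO. *WAPL*, the release factor, stood at 13.1 and 17.6 CPM in Scr, at 8.98 and 37.9 in miR-23a KO, and at 23.5 and 22.5 in miR-27a KO. The miR-23a KO libraries of both genes lay on opposite sides of Scr, and miR-27a KO lay inside the Scr range for *NIPBL* and above it for *WAPL*. *PDS5A* and *PDS5B* encode scaffolds that take part in both release and protection of the ring. *PDS5A* stood at 19.7 and 39.6 CPM in Scr, at 19.0 and 83.9 in miR-23a KO, and at 43.9 and 38.8 in miR-27a KO. *PDS5B* stood at 5.43 and 10 CPM in Scr, at 5.02 and 21.7 in miR-23a KO, and at 10 and 9.88 in miR-27a KO. For both, miR-27a KO was near the upper Scr library, and replicate 1 of miR-23a KO was just below the lower one. *ESCO2*, an acetyltransferase of S phase, stood at 1.67 and 3.11 CPM in Scr, at 3.42 and 8.13 in miR-23a KO, and at 4.85 and 4.10 in miR-27a KO. It was the one gene of the 10 with all 4 knockout libraries above both Scr libraries, where 4.17% of 14163 genes had them. In bulk RNA a change in the share of cycling cells and a change in RNA per cell cannot be told apart.

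**Figure D2:**
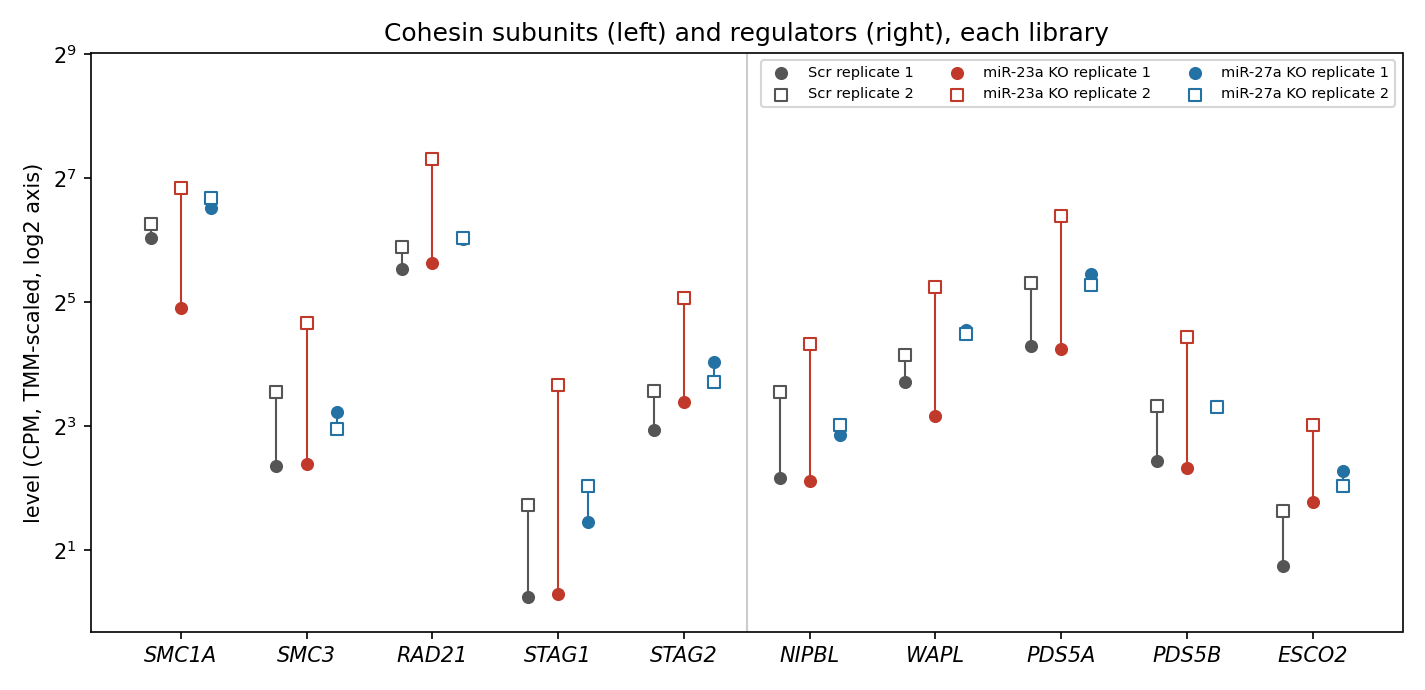
Level of each cohesin gene in each library, in CPM on a log2 axis, with lines joining the 2 libraries of a group (filled circles replicate 1, open squares replicate 2). Replicate 2 of miR-23a KO is the highest library for all 10 genes, while the miR-27a KO libraries lie close together.

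Levels of the 10 genes were compared with each other only as CPM per kilobase of transcript. In Scr, *RAD21* had the highest mean, 14.1 ± 2.39 (SD, n = 2), and *SMC1A* followed with 7.26 ± 0.804. *PDS5A* (4.13 ± 1.96), *WAPL* (2.43 ± 0.502), *SMC3* (2.05 ± 1.13) and *STAG2* (1.87 ± 0.575) came next, and each step among these 4 was smaller than the larger SD of the genes beside it. *PDS5B*, *NIPBL*, *ESCO2* and *STAG1* had means of 1.03, 0.777, 0.609 and 0.371, with SDs of 0.432, 0.495, 0.26 and 0.249, and the steps among them were likewise smaller than the larger SD. The Scr libraries of *STAG2* and *PDS5B* did not overlap. The median of 13326 genes with a length was 6.74 CPM per kilobase, so *STAG1* lay at percentile 7.02 and *RAD21* at percentile 65.6. Per kilobase, *STAG1* made up 11.8% and 19.4% of the summed *STAG1* and *STAG2* level in Scr, where replicate 1 comes first, with 9.08% and 24.5% for miR-23a KO and 12.6% and 21.2% for miR-27a KO. This share was higher in replicate 2 of each group, and the groups overlapped. The ratio of *PDS5A* to *PDS5B* was steadier, between 3.79 and 4.59 in the 6 libraries.

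For miR-23a KO against Scr, the question was which of these transcripts differ once miR-23a is deleted. All 10 cohesin genes had a higher fitted value, and 0 were called, which took more than a 1.5-fold difference together with an adjusted p below 0.05 (edgeR's quasi-likelihood test, Benjamini-Hochberg over 13786 genes). Of all genes 0% were called, with 118 higher and 214 lower at an unadjusted p under 0.05. DESeq2 called 63 genes and limma 0, none of them a cohesin gene, and 0 of the 10 had an unadjusted p under 0.05 in edgeR. *ESCO2* alone had both knockout libraries above both Scr libraries, 1 of 10 where 8.88% of all genes did. The median log2 fold change was 0.94 in the cohesin genes and 0.16 in all genes tested.

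The largest fitted difference was that of *STAG1*, 1.74 ± 1.09 on the log2 scale (value ± standard error), and then came *ESCO2* (1.37 ± 0.76), *STAG2* (1.27 ± 0.69) and *RAD21* (1.07 ± 0.62). *SMC1A* had the smallest, at 0.13 ± 0.65, so the genes with a miR-23a-3p site, *SMC1A* and *ESCO2*, lay at the low end and near the high end, and the adjusted p was 1 for all 10 in the edgeR test with Benjamini-Hochberg adjustment. These values depended on which miR-23a KO library was kept. Without replicate 1 the median of the 10 was 1.58 and 10 were higher, and *RAD21* (1.62, adjusted p = 0.0287) and *STAG2* (1.82, adjusted p = 0.0421) were called by edgeR with Benjamini-Hochberg adjustment, 2 of 10 where 4.12% of genes were. Without replicate 2 the median was -0.67, 8 were lower, and *SMC1A* was called by edgeR, with a lower value of -1.24. It was 1 of 10 called, where 18.6% of genes were called in either direction. *STAG1* went from 2.52 without replicate 1 to -0.88 without replicate 2. In these fits the lone library was assumed to vary like the other group. *STAG2* (0.10) and *ESCO2* (0.52) were the 2 genes still higher without replicate 2.

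For miR-27a KO against Scr, 9 of the 10 cohesin genes had a higher fitted value and *NIPBL* a lower one, and 0 were called where 10.3% of 13820 genes were (487 higher and 931 lower) by edgeR's test. DESeq2 and limma also called 0 of the 10, and 2 had an unadjusted p under 0.05 in edgeR, *SMC1A* and *WAPL*, where 1902 of all genes were higher and 2545 lower at that level. The miR-27a KO libraries both exceeded the Scr libraries for 5 of the 10 genes (*SMC1A*, *RAD21*, *STAG2*, *WAPL* and *ESCO2*), where 32.4% of all genes did. The median log2 fold change was 0.47 in the cohesin genes and 0.01 in all genes tested.

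*SMC1A* came nearest to a call, with 0.45 ± 0.12 (log2, ± standard error) and an adjusted p of 0.0594 (edgeR, Benjamini-Hochberg), and its fold of 1.37 was below the threshold in any case. *WAPL* had 0.57 ± 0.19 (adjusted p = 0.102 by the same edgeR test) and *ESCO2* 0.90 ± 0.39 (adjusted p = 0.182, edgeR), the largest of the 10. *STAG1*, whose 3′-UTR holds the ACTGTGA match printed above, had 0.60 ± 0.55 (adjusted p = 0.501, edgeR). *PDS5B*, the other gene with that match, had 0.36 ± 0.32 (adjusted p = 0.488, edgeR). The 8 genes without it ran from -0.08 for *NIPBL* to 0.90 for *ESCO2*, on both sides of the values of *STAG1* and *PDS5B*. Here the values depended on which Scr library was kept. Without Scr replicate 2, 8 of 10 genes were called where 26% of genes were called in either direction. These 8 were all higher, *STAG1* was at 1.52 and the median of the 10 was 0.84. Without Scr replicate 1, 7 were higher and 3 lower, *NIPBL* was at -0.61, *STAG1* was at 0.05 and the median was 0.11.

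In the comparison of the knockouts themselves, which leaves out Scr, 0 of the 10 cohesin genes were called and 0% of 13841 genes were, with 645 genes higher in miR-23a KO and 562 lower at an unadjusted p under 0.05 in edgeR. DESeq2 called 477 genes and limma 21, with 0 cohesin genes in either. For no cohesin gene did both libraries of miR-23a KO exceed both of miR-27a KO (0 of 10, where 18.7% of all genes did). The median log2 fold change was 0.51 in the cohesin genes against 0.11 in all genes, and 9 of 10 were higher in miR-23a KO, *SMC1A* being lower at -0.43 ± 0.67. Without miR-23a KO replicate 1, 9 of 10 were called where 34.2% of genes were called in either direction. These 9 were all higher, and the median of the 10 was 1.15. Without replicate 2, 7 of 10 were called where 51.4% of genes were called in either direction. These 7 were all lower, and the median of the 10 was -0.90. In CPM, replicate 2 of miR-23a KO lay above the miR-27a KO libraries for all 10 genes and replicate 1 below them. Since both comparisons with Scr share its libraries, their values are given side by side and were not related to each other.

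**Figure D3:**
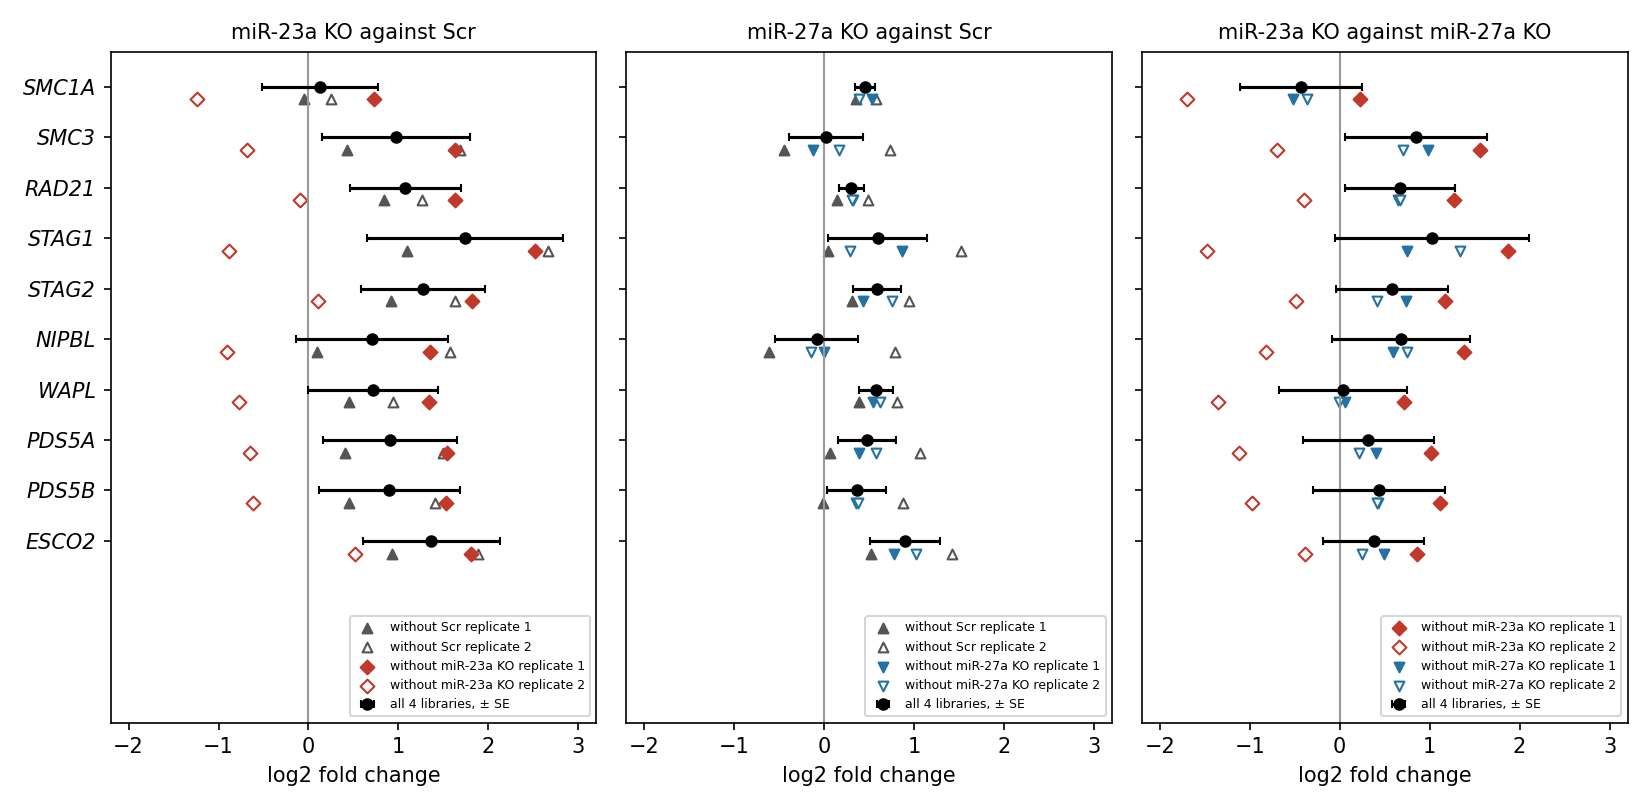
Log2 fold change of each cohesin gene in the 3 comparisons (black, with standard error from edgeR) and in fits that leave out 1 library (coloured symbols, offset below). Open red diamonds, without miR-23a KO replicate 2, lie to the left of the filled ones for all 10 genes, with medians of -0.67 and 1.58 against Scr.

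The cohesin transcripts have a base composition in common that the choice of genes did not use. Their median GC content was 39.8% against 50.2% for 13326 genes, 9 of the 10 had at most 43.2%, the band of lowest GC content when all genes are cut into 4 equal bands, and *SMC1A* had 47.1%. They were also long, with a median of 6194 bases against 2914, and 7 lay in the longest of 4 such bands, over 4561 bases. In the miR-23a KO pair the ratio of the libraries moved with both features over all genes. The median log2 ratio of replicate 2 to replicate 1 was 1.10 in the band of lowest GC content and -1.11 in the highest, and 0.98 in the band of longest transcripts against -0.66 in the shortest. In the Scr pair the corresponding medians were 0.35 and -0.18 for GC content, and in miR-27a KO they were 0.01 and -0.02. Of 1344 genes in both the lowest GC band and the longest band, 6 of them cohesin genes, 94.6% were higher in replicate 2 of miR-23a KO.

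**Figure D4:**
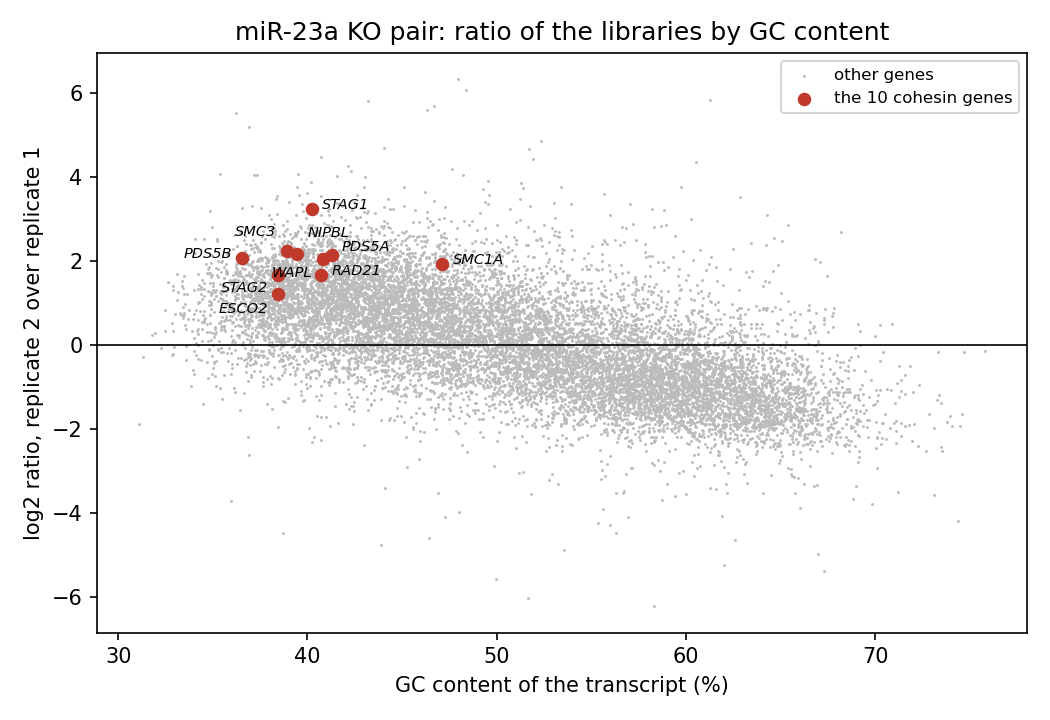
Log2 ratio of miR-23a KO replicate 2 to replicate 1 against the GC content of the transcript for 13326 genes, with the cohesin genes in red. The cloud slopes from a median of 1.10 in the lowest GC band to -1.11 in the highest, and the cohesin genes lie at its upper left, between 1.22 and 3.24.

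Taking out the trend of each library on GC content and length narrowed the gaps within the Scr and miR-23a KO pairs and left the miR-27a KO pair almost as it was. The median log2 ratio of the 10 genes in the miR-23a KO pair went from 2.07 to 0.75, with all 10 still higher in replicate 2 and *STAG1* widest at 2.01. In the Scr pair it went from 0.86 to 0.37, and in the miR-27a KO pair from -0.04 to -0.05. The comparisons moved with it. Against Scr, the median log2 fold change of the 10 genes with the trend removed was 0.40 for miR-23a KO and 0.26 for miR-27a KO, and 0 genes of the 10 were called in either (edgeR, smallest adjusted p 0.777 and 0.109). *SMC1A* in miR-23a KO then lay below Scr, at -0.25, and *SMC3* in miR-27a KO at -0.19. With the trend removed, *RAD21*, *STAG2* and *ESCO2* had all 4 knockout libraries above both Scr libraries, 3 of 10 where 7.85% of 13326 genes did. For *RAD21* the corrected log2 levels stood at 6.51 and 6.56 in Scr, at 6.72 and 7.40 in miR-23a KO, and at 6.58 and 6.59 in miR-27a KO, and for *STAG2* at 4.36 and 4.55, 4.82 and 5.33, and 4.96 and 4.64 in the same order. For *ESCO2* the corrected log2 levels stood at 2.29 and 2.73 in Scr, at 3.19 and 3.41 in miR-23a KO, and at 3.28 and 3.04 in miR-27a KO. *STAG1* overlapped, and its corrected log2 levels stood at 1.36 and 2.40 in Scr, at 1.65 and 3.66 in miR-23a KO, and at 2.08 and 2.63 in miR-27a KO.

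**Figure D5:**
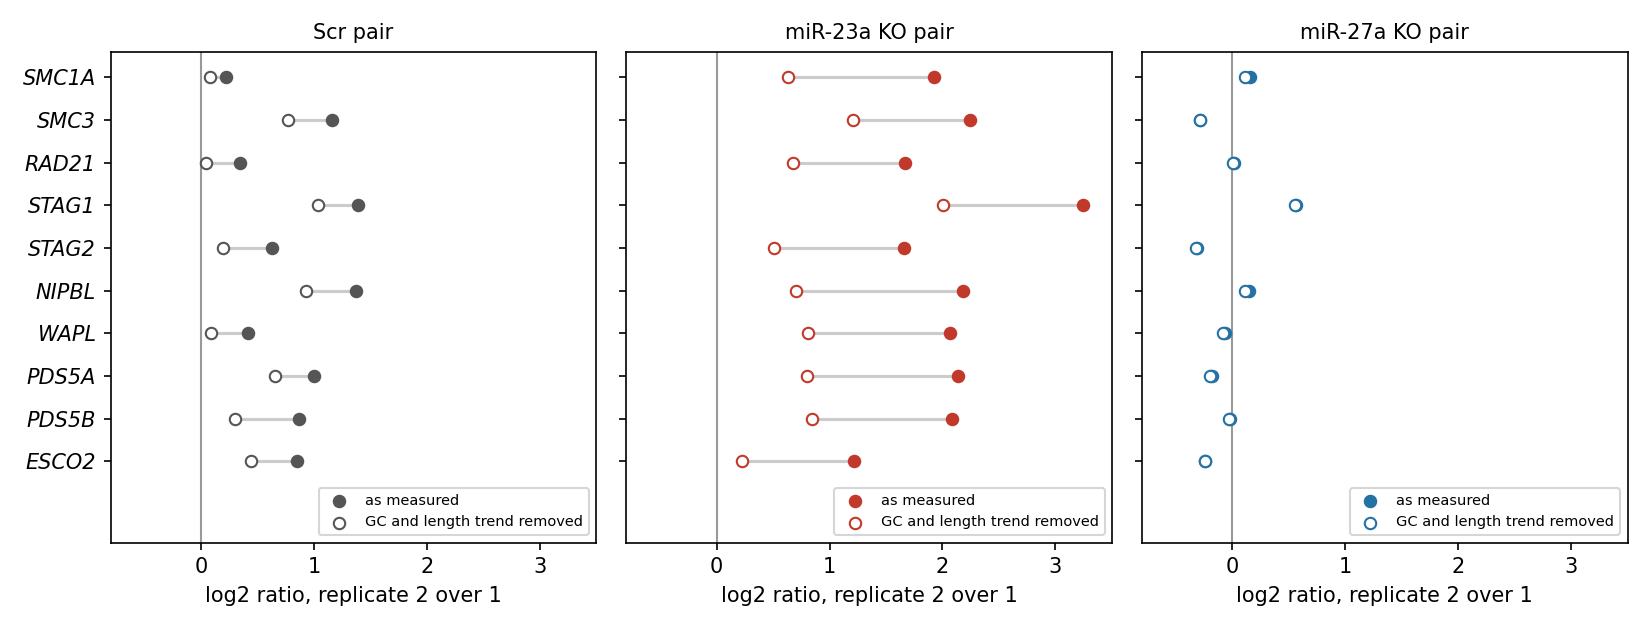
Log2 ratio of replicate 2 to replicate 1 of each cohesin gene within each group, as measured (filled) and without the trend of its libraries on GC content and length (open). In miR-23a KO the median goes from 2.07 to 0.75, and in miR-27a KO it stays near 0, with values from -0.32 to 0.55 after removal.

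Other genes of sister chromatid cohesion were read from the same fits. Of 17 such genes, 14 were higher in miR-23a KO than in Scr and 11 in miR-27a KO, with medians of 0.37 and 0.14, and 0 were called in either by edgeR (1 and 7 at an unadjusted p under 0.05, where 332 of 13786 and 4447 of 13820 genes were). *SGO2*, which protects centromeric cohesin, had the largest value in miR-23a KO, a log2 fold change of 1.93 ± 0.72. It stood at 1.11 and 2.23 CPM in Scr, at 5.02 and 7.11 in miR-23a KO, and at 1.27 and 1.81 in miR-27a KO, so both miR-23a KO libraries stood above the other 4. *WDHD1*, a replication fork protein, was the highest of the list in miR-27a KO at 0.83 ± 0.43.

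*CTCF*, the DNA-binding protein at which loop extrusion stops, had the lowest value of the list in both comparisons, -0.42 ± 0.64 for miR-23a KO and -1.17 ± 0.40 for miR-27a KO (adjusted p = 0.116, edgeR). Its levels of 47.2 and 20.1 CPM in Scr were far apart, and it stood at 13.9 and 33.2 in miR-23a KO and at 14.8 and 15.1 in miR-27a KO. *MAU2*, the partner of NIPBL in the loader, had an adjusted p of 0.0382 in miR-27a KO (edgeR, Benjamini-Hochberg), with a log2 fold change of -0.46 ± 0.10 that was under the fold threshold. The other partners were not called. *HDAC8*, which deacetylates SMC3, was at -0.15 and 0.18, *ESCO1*, the acetyltransferase of interphase, at 0.79 and 0.14, and *CDCA5* (sororin), which counters WAPL, at 0.61 and -0.30, each pair in the order miR-23a KO, miR-27a KO. With GC content and length corrected, *HDAC8* was at -0.0043 and 0.22, *ESCO1* at 0.17 and -0.0985, and *CDCA5* at 0.69 and -0.07.

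Related SMC complexes gave the same count of 0 calls by edgeR, where 0% of all genes were called for miR-23a KO and 10.3% for miR-27a KO. Of 8 condensin genes, 7 were higher in miR-23a KO (median 0.65) and 8 in miR-27a KO (median 0.25), where 3 had an unadjusted p under 0.05, as did 4447 of 13820 genes. *NCAPG* was the highest condensin gene in miR-23a KO at 1.37 ± 0.71 and *NCAPD2* the lowest at -0.08 ± 0.46, and *NCAPG2* was the highest in miR-27a KO at 0.57 ± 0.11 (adjusted p = 0.0338, edgeR), just under the fold threshold. Of 6 genes of the SMC5/6 complex, 4 were higher for miR-23a KO and 3 for miR-27a KO, with medians of 0.23 and -0.01, and 0 had an unadjusted p under 0.05 in either, where 332 of 13786 and 4447 of 13820 genes did. *SMC6* was the highest of them in miR-23a KO at 1.14 ± 0.59, *NSMCE3* the lowest at -0.69 ± 0.69, and in miR-27a KO *SMC5* was the highest at 0.31 ± 0.38 and *SMC6* the lowest at -0.55 ± 0.34. With GC content and length corrected, the medians for miR-23a KO and miR-27a KO were 0.48 and 0.22 in the cohesion list (15 and 9 of 17 higher), 0.31 and 0.22 in condensin (8 and 7 of 8 higher), and 0.07 and -0.13 in SMC5/6 (4 and 2 of 6 higher). *NCAPD2* in miR-23a KO then lay at 0.19. In miR-27a KO the corrected value of *NCAPG2* was 0.34, below *NCAPH2* at 0.45 and *NCAPD2* at 0.42. Of the germline cohesin genes, *STAG3* was expressed, at 13.9 and 12 CPM in Scr, at 6.09 and 8.02 in miR-23a KO, and at 9.39 and 9.88 in miR-27a KO. It was not called in either, at -0.80 ± 0.56 for miR-23a KO and -0.43 ± 0.18 for miR-27a KO (adjusted p = 0.18 for the latter, edgeR). *SMC1B* and *REC8* stayed under 1 CPM in every library.

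*PURA* and *TTK* were read because the study places them beside *STAG1*. *PURA*, which encodes a nucleic acid-binding protein, stood at 5.63 and 8.45 CPM in Scr, at 9.67 and 11.1 in miR-23a KO, and at 11.3 and 10.5 in miR-27a KO. *TTK*, the spindle checkpoint kinase, stood at 2.23 and 4.66 CPM in Scr, at 11.5 and 14.3 in miR-23a KO, and at 4.30 and 4.58 in miR-27a KO. Unlike *STAG1*, *TTK* was higher in both miR-23a KO libraries than in any other library, and neither gene was called in any comparison.

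The members were also set beside lists of cycling cells. Relative to the Scr mean, the median log2 level of the 10 genes stood at -0.43 and 0.43 in the Scr libraries, at -0.56 and 1.59 in miR-23a KO, and at 0.43 and 0.46 in miR-27a KO. The 43 S-phase genes of Seurat, none of them a member, had medians of -0.15 and 0.15, 0.13 and 0.80, and 0.39 and 0.38 in the same order, and the 54 G2/M genes had -0.10 and 0.10, 0.29 and 0.97, and 0.33 and 0.35. Both lists were thus also higher in replicate 2 of miR-23a KO, by a smaller amount than cohesin. In replicate 1 the cohesin median lay below both Scr libraries and the list medians did not, but the members differed. *ESCO2* stood there at 3.42 CPM, above 1.67 and 3.11 in Scr, and *RAD21* and *STAG2* lay inside the Scr range. With GC content and length corrected, *RAD21*, *STAG2* and *ESCO2* lay above both Scr libraries in replicate 1, and *SMC1A*, *WAPL* and *PDS5B* below them. The part of cell cycle state in the cohesin values was not tested.

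Across the 6 libraries the log2 levels of the 10 genes correlated with each other with a median Pearson r of 0.92 over 45 pairs (0.47 to 0.99), a description in which the miR-23a KO pair holds the extreme values. *SMC1A* followed the mean profile least (r = 0.79) and *PDS5B* most closely (r = 0.998). Outside the set, the genes most like the mean profile were *HELLS*, *RPS6KB1*, *SHPRH*, *YTHDF3* and *ATP13A3*, and those most like *STAG1* were *ARHGAP18*, *DDX46*, *THOC2*, *EXOC1* and *UBA3*, all with r over 0.99. These 10 transcripts had GC contents between 36.4% and 46.2%, below the median of all genes.

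The label of a liver cancer line was checked against markers. All 9 hepatocyte markers were detected, and their summed level stood at 29940 and 37150 CPM in Scr, at 31570 and 32800 in miR-23a KO, and at 25770 and 25710 in miR-27a KO. Single markers differed both ways between the miR-23a KO libraries. *ALB* stood there at 7903 and 14614 CPM and *AFP* at 3810 and 6520. *SERPINA1* stood at 11784 and 4639 CPM and *APOA1* at 4092 and 877. *ALB* and *SERPINA1* had the most counts in Scr, not scaled for length, and 4 of the 9 were called in miR-27a KO by edgeR, where 10.3% of all genes were. *AFP*, *ALB* and *FGB* were lower, with log2 fold changes of -4.11 ± 0.23, -2.59 ± 0.20 and -2.05 ± 0.32, and *TF* was higher at 1.25 ± 0.20 (edgeR, adjusted p = 0.00262, 0.00538, 0.0212 and 0.0212). Without a call, *APOA1*, *SERPINA1* and *HNF4A* lay above both Scr libraries there and *TTR* below them (-1.38 ± 0.49). *COL1A1*, the fibroblast marker with a row, was at most 0.139 CPM and at 0 in 3 libraries, *PTPRC* and *CD3E* of blood cells were under 0.5 CPM, and the 3 endothelial markers summed to at most 6.84 CPM. *LYZ*, called higher in miR-27a KO (1.96 ± 0.09, adjusted p = 0.00204, edgeR), gave nearly all counts of the blood list, whose sum stood at 382 and 413 CPM in Scr, at 131 and 186 in miR-23a KO, and at 1501 and 1565 in miR-27a KO.

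On GRCh38 the 10 genes lie apart. *SMC1A* (gene 8243) and *STAG2* (gene 10735) are on the X chromosome at 53374149 to 53422728 and 123960212 to 124422664, *SMC3* (gene 9126) and *WAPL* (gene 23063) on chromosome 10 at 110567691 to 110604636 and 86435256 to 86521815, and *STAG1* (gene 10274) on chromosome 3 at 136336233 to 136752403. *NIPBL* (gene 25836) is on chromosome 5 at 36876759 to 37066413, *PDS5A* (gene 23244) on chromosome 4 at 39822863 to 39977956, and *PDS5B* (gene 23047) on chromosome 13 at 32586427 to 32778019. *RAD21* (gene 5885) and *ESCO2* (gene 157570) are on chromosome 8 at 116845935 to 116874866 and 27771949 to 27812640. Some spans overlap genes of the opposite strand that also have rows, among them *PCCB* at *STAG1* (up to 1762 counts in a library), *RIBC1* at *SMC1A* (up to 357), *PBK* (up to 520) and *CCDC25* (up to 404) at *ESCO2*, and *UTP23* at *RAD21* (up to 113). The sources differ on whether the kit kept strand, and whether the counting used it is not given in the sources used here, so reads from the overlapping parts of these pairs may be shared and the values of these members carry that uncertainty.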

How the data were processed

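A gene table of 6 HepG2 RNA-seq libraries in 3 groups of 2 was read. The deposited values were taken as the authors' expected counts, unscaled for depth and length, although their columns are named FPKM. This is an inference from column totals that differ between libraries and from a near-constant ratio to FPKM values in the study's supplement, and all levels, fold changes and p-values depend on it. The planned analysis covered either unit, and its branch for counts was run. The submitters' processing notes name HISAT, StringTie, Cufflinks and GATK without roles, and the genome build is not given in the sources used here. All value columns were used (0 left out).

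Expected counts were rounded to whole numbers. Each pair of groups was fitted separately with edgeR 4.0.16 in R 4.3.3 (filterByExpr, TMM, glmQLFit and glmQLFTest), with Benjamini-Hochberg adjustment over all genes tested. Calls needed more than a 1.5-fold difference with an adjusted p below 0.05, with the study's 0.001 as an alternative. All 10 members passed the filter in each fit. Log2 CPM used a prior count of 2. Precision was set by the spread between 2 libraries per group and, for *STAG1*, by counts as low as 16. Transcript length, GC content and 3′-UTRs came from GENCODE release 29, with 17621 genes (88.0%) matched by gene ID, all 10 members among them. The S-phase and G2/M lists came from Seurat 5.3.0. The workflow was tested on simulated counts that held no trend on GC content or length between replicates, unlike the miR-23a KO pair.

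The members and lists were chosen with earlier results of these data known. Genes named were the members, their partners *HDAC8*, *ESCO1*, *CDCA5*, *MAU2* and *CTCF*, any gene of the cohesion, germline, condensin and SMC5/6 lists that was called or had the largest positive or negative value of its list, *PURA* and *TTK*, and the 5 genes with the highest correlation with the mean of the members' z-scored log2 CPM or with *STAG1*. Others were named after their values were seen. *RAD21L1*, *COL3A1*, *DCN* and *LUM* were not analysed here. Alternatives were median-ratio scaling, DESeq2 1.42.0, limma 3.58.1 on log2 CPM, no filter (at least 1 count), a fit of all 6 libraries, a replicate block, a loess correction for GC content and length (span 0.5, degree 2), both together, and leaving out each library.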

Additional observations from a re-analysis of the deposited data

Results flagged for a closer look

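Among 58 genes of the lists, 3 had the libraries of miR-23a KO and of miR-27a KO on opposite sides of both Scr libraries, which is 5.17%, where 6.07% of 14163 genes did, and none of the 3 was one of the 10 cohesin genes. The difference was tested by comparing the knockouts directly in edgeR with Benjamini-Hochberg adjustment, and 0 of the 3 passed an adjusted p under 0.05. *SMC6* stood at 5.91 and 10.8 CPM in Scr, at 13.5 and 21.2 in miR-23a KO, and at 5.64 and 5.84 in miR-27a KO, a log2 fold change between the knockouts of 1.60 ± 0.41 (adjusted p = 0.309, edgeR). *TIMELESS*, a replication fork protein, stood at 81.0 and 76.0 CPM in Scr, at 65.8 and 72.5 in miR-23a KO, and at 93.6 and 89.9 in miR-27a KO, a log2 fold change of -0.40 ± 0.31 (adjusted p = 0.812, edgeR), and with GC content and length corrected its fitted values against Scr were both positive, 0.17 for miR-23a KO and 0.27 for miR-27a KO. *LYZ*, of the blood list, stood at 377 and 409 CPM in Scr, at 128 and 184 in miR-23a KO, and at 1497 and 1561 in miR-27a KO, a log2 fold change of -3.29 ± 0.42 (adjusted p = 0.101, edgeR).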

How the results depend on the processing

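No cohesin gene was called under any setting that kept all libraries. The values of cohesin genes that changed side, and the counts of called genes that moved, are given here. For miR-23a KO against Scr, DESeq2 called 63 genes, no filter 10, a fit of all 6 libraries 3 and the GC content and length correction 2, against 0. For miR-27a KO, 1418 genes became 892 with no filter, 64 in the 6-library fit and 4 at an adjusted p under 0.001, and 1616 with DESeq2, 1427 with the correction and 1413 with limma. Between the knockouts, 0 became 477 with DESeq2, 218 in the 6-library fit, 283 with the correction and 21 with limma. Whether libraries with the same replicate number belong together across groups is not known. The deviations within pairs correlated by 0.149 (Scr and miR-23a KO), 0.0103 (Scr and miR-27a KO) and 0.0173 (the knockouts), which cannot decide it. With a replicate block, 69, 1693 and 400 genes were called in the 3 comparisons, and with the correction as well 25, 1643 and 971. In miR-23a KO against Scr, *SMC1A* (0.13) became -0.20 with the replicate block, -0.25 with the correction, -0.31 with both and -0.21 with limma. In miR-27a KO, *NIPBL* (-0.08) became 0.051 with the block and 0.0748 with limma, and *SMC3* (0.02) became -0.19 with the correction and -0.16 with both. Between the knockouts, *WAPL* (0.04) became -0.30, -0.16, -0.22 and -0.31 with block, correction, both and limma, *PDS5A* (0.32) became -0.0393, -0.0229 and -0.0442 with block, both and limma, and *PDS5B* (0.44) became -0.12 and -0.19 with correction and both. With 1 library left out, and the lone library assumed to vary like the other group, genes called ranged from 4 to 2630 (miR-23a KO), 334 to 3716 (miR-27a KO) and 72 to 7303 (knockouts), cohesin genes called from 0 to 2, 0 to 8 and 0 to 9, and the cohesin median from -0.67 to 1.58, 0.11 to 0.84 and -0.90 to 1.15. Ranges in miR-23a KO were -1.24 to 0.73 for *SMC1A*, -0.68 to 1.68 for *SMC3*, -0.0947 to 1.62 for *RAD21*, -0.88 to 2.66 for *STAG1*, -0.90 to 1.57 for *NIPBL*, -0.78 to 1.34 for *WAPL*, -0.65 to 1.54 for *PDS5A* and -0.62 to 1.53 for *PDS5B*. In miR-27a KO they were -0.45 to 0.73 for *SMC3*, -0.61 to 0.79 for *NIPBL* and -0.0068 to 0.87 for *PDS5B*. Between the knockouts they were -1.69 to 0.22 for *SMC1A*, -0.70 to 1.56 for *SMC3*, -0.40 to 1.27 for *RAD21*, -1.48 to 1.88 for *STAG1*, -0.48 to 1.18 for *STAG2*, -0.82 to 1.38 for *NIPBL*, -1.35 to 0.71 for *WAPL*, -1.12 to 1.01 for *PDS5A*, -0.98 to 1.12 for *PDS5B* and -0.38 to 0.86 for *ESCO2*. Median-ratio scaling changed no call of a cohesin gene, and in miR-27a KO it also called 1418 genes, 1410 of them the same. The cause of these differences was not tested.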
